A study of Mus musculus with 6 samples.

Results

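The nuclear lamins and the envelope proteins that bind them were examined in bulk RNA-Seq of mouse GP muscle, the gastrocnemius and plantaris of the lower leg. The group holds 9 genes chosen by name: Lmna, Lmnb1 and Lmnb2, which encode the lamins, Emd, Lemd2, Lemd3 and Tmpo, which encode envelope proteins with a LEM domain, Lbr, the lamin B receptor, and Banf1, which encodes barrier-to-autointegration factor (BAF). All 9 were among the 24421 genes listed, and all 9 were among the 14180 genes that passed the filter on low counts, with 237 to 7379 counts per library. The study addressed what loss of Net39, a muscle-enriched transmembrane protein of the nuclear envelope, does to adult muscle. There were 3 libraries labelled Ctrl, from Net39 fl/fl mice without Cre, and 3 libraries labelled cKO, from HSACreERT2;Net39 fl/fl mice. The label for the strain background was B6C3F1, and mice of both groups carried the floxed allele, received tamoxifen, were male and were sampled at 5 months of age, 3 months after tamoxifen. The HSA promoter drives CreERT2 in muscle fibers, and per the methods of the study it is not active in satellite cells, so the other cells of whole muscle would keep the gene. Net39 was floxed around its first exon, whereas the counts cover the whole gene.

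The targeted gene went against the labels. Net39, listed under its older symbol Ppapdc3, had 310, 321 and 217 counts in the Ctrl-labelled libraries and 5365, 4340 and 6080 counts in the cKO-labelled libraries. In TMM-normalized counts scaled to library size (CPM), its level was 7.20 ± 1.10 (SD, n = 3) in the Ctrl-labelled libraries and 134 ± 19.7 (SD, n = 3) in the cKO-labelled ones, a log2 difference of 4.22 (SE 0.17, edgeR, adjusted p = 0.000161). The groups were kept as labelled, and each direction below is that of the labels. If the group names were exchanged, every direction given would turn. Total counts were 33860001 to 48839910 per library. The labelled groups differed in more than Net39: edgeR called 3454 genes at an adjusted p under 0.05, 1786 of them higher and 1668 lower in the cKO-labelled libraries. The tissue label held, since the summed CPM of 6 skeletal muscle genes (Ckm, Acta1, Mb, Des, Ttn and Neb) was 65700 to 66200 in the Ctrl-labelled libraries and 70000 to 91100 in the cKO-labelled ones. This sum did not overlap between the groups, and 2 of the 6 genes were called higher and 0 lower, against 12.6% and 11.8% of all genes. Values of single genes did not overlap and were higher in the cKO-labelled libraries for 22.0% of all genes tested.

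The lamina is a meshwork of intermediate filaments under the inner nuclear membrane. A-type lamins (lamin A and lamin C, both from Lmna) and B-type lamins (from Lmnb1 and Lmnb2) form separate but interwoven networks. LEM-domain proteins span the inner membrane or lie in the nucleoplasm and bind BAF, a small DNA-bridging protein, while LBR holds heterochromatin that carries HP1. Skeletal muscle is rich in lamin A/C and poor in B-type lamins as it matures, and changes in LMNA or EMD in people cause Emery-Dreifuss muscular dystrophy.

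Lmna and Lemd2 were lower, and Tmpo, Lmnb1 and Lbr were higher, in the cKO-labelled libraries. Of the 9 genes, 5 had an adjusted p under 0.05. Those lower in the cKO-labelled libraries were Lmna (log2 difference of -0.97) and Lemd2 (-0.58), 2 of 9, against 11.8% of all genes tested called in that direction. Those higher were Tmpo (0.77), Lmnb1 (0.46) and Lbr (0.25), 3 of 9, against 12.6% of all genes. The count of genes called higher was 0 of 9 with total counts in place of TMM (1 at an unadjusted p under 0.05), against 4.75% of all genes, and 0 to 2 of 9 when any 1 library was left out, against 5.33% to 12.3% of all genes in those fits. Lmna and Lemd2 were called lower each time. With a fold change over 2 required as well, edgeR called 0 of 9, against 6.05% of all genes. The count was also 0 of 9 at an unadjusted p under 0.05 with that fold, and 0 with DESeq2. The median log2 difference of the 9 genes was 0.14 (5 positive, 4 negative), and that of all genes tested was -0.015. Values of the labelled groups did not overlap for 6 of the 9 genes, with Lmnb1, Lbr, Banf1 and Tmpo higher (4 of 9, against 22.0% of all genes) and Lmna and Lemd2 lower (2 of 9, against 21.9%). For each of these 6 genes the exact two-sided permutation test of 3 against 3 libraries gave p = 0.1, the smallest it can give.

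**Figure D1:**
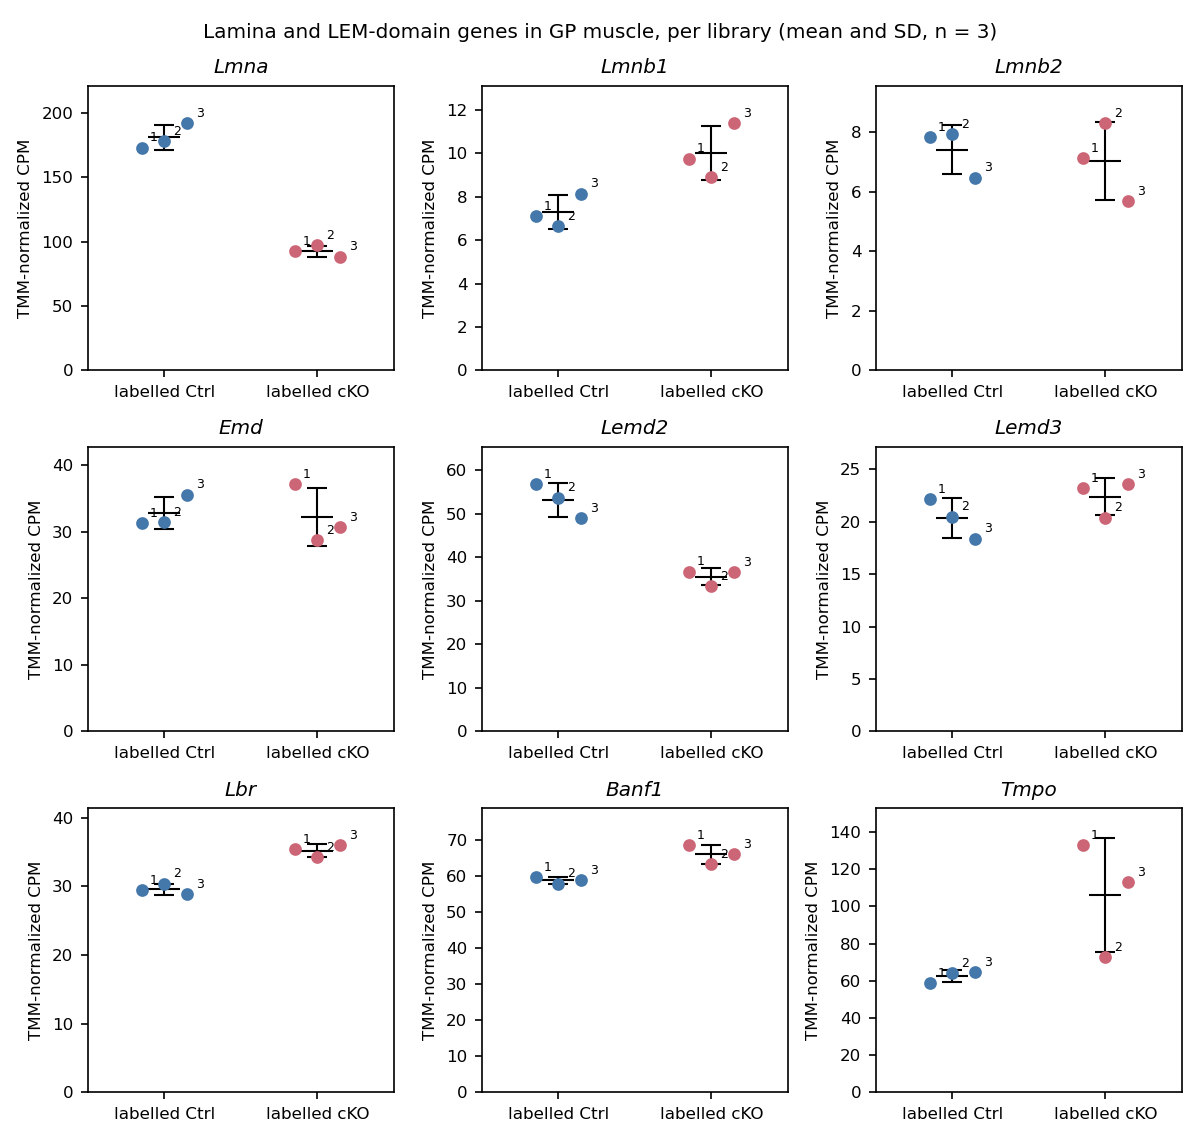
TMM-normalized CPM (vertical axes, from 0) of each of the 9 genes in the 3 libraries labelled Ctrl (blue) and the 3 labelled cKO (red). Points are libraries with their replicate numbers, and bars give the mean and SD (n = 3). Lmna at 173 to 192 CPM in the Ctrl-labelled libraries lies above 88.3 to 97.0 CPM in the cKO-labelled ones, and Tmpo spreads from 72.8 to 133 CPM in the cKO-labelled libraries.

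Upstream sequence is shown for the gene with the largest difference in each direction, Lmna and Tmpo. Each sequence runs 5′ to 3′ on the minus strand of GRCm38 (RefSeq, GRCm38.p6; the same assembly as mm10) and is the first window listed for that gene, from 250 bases before the start. Tmpo is shown up to the base before the start and Lmna up to 35 bases before it, just short of an annotated exon. The start used for Lmna (88503352) is the first in the table and lies inside the span annotated for the gene in GENCODE M21, which reaches 88509956. Capitals mark GC boxes (GGGCGG or, on the other strand, CCGCCC) and CCAAT boxes (CCAAT or ATTGG).
Lmna, chr3:88503387-88503602: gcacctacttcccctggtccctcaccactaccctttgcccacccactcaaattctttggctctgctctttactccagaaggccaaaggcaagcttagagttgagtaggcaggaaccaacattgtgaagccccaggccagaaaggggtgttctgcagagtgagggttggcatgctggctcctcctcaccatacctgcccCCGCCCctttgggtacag
Tmpo, chr10:91171620-91171869: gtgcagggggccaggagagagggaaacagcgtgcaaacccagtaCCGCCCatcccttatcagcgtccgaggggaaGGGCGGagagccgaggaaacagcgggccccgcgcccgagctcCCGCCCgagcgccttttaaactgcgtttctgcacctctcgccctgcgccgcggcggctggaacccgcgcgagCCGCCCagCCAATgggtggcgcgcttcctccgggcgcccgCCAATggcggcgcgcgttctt
The window of Lmna, counted over 250 bases before and 50 after the start, held 1 CpG dinucleotide, and 5.43% of the 32851 windows of that length held fewer (median 7). The window of Tmpo held 36 CpG dinucleotides, and 93.8% of windows held fewer. GC boxes numbered 1 in the window of Lmna and 4 in that of Tmpo, and 35.7% of all windows held at least 1. CCAAT boxes numbered 0 and 2, and 37.4% of windows held at least 1. The window of Lmna also held 1 AP-1 motif (TGANTCA, on both strands), downstream of the stretch shown, which 7.81% of windows did. Neither window held a TATAAA motif (13.6% of windows), a CAGCTG motif (16.3%) or a MEF2 motif (3.19%), searched on both strands. Windows of 7 of the 9 genes were used. Composition depended on the window, since a second window listed for Lmna held 7 CpG dinucleotides (47.9% of windows held fewer), 1 CCAAT box and 0 GC boxes, and a second one for Tmpo held 17 CpG dinucleotides and neither box. The first windows of Lemd3 (45 CpG dinucleotides), Lbr (42), Banf1 (26), Lmnb2 (24) and Emd (15) all held more CpG than that of Lmna.

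The A-type lamin gene had the largest difference. Lmna lies on the minus strand of chromosome 3 of GRCm38, from 88480147 to 88509956, and counts over its exons do not separate lamin A from lamin C. It had 6790, 7379 and 7013 counts in the Ctrl-labelled libraries and 3278, 3737 and 3885 counts in the cKO-labelled ones. Scaled to CPM these were 173, 178 and 192 against 92.5, 97.0 and 88.3. Every library labelled Ctrl was above every library labelled cKO, although the cKO-labelled libraries had the higher total counts. The mean was 181 ± 9.56 CPM (SD, n = 3) in the Ctrl-labelled libraries and 92.6 ± 4.38 CPM (SD, n = 3) in the cKO-labelled ones, which is 48.9% lower. The log2 difference was -0.97 (SE 0.08, 95% interval -1.15 to -0.78, edgeR, adjusted p = 0.00106), and Lmna ranked 58 by p among all genes tested. In whole muscle, fewer cells that express a gene and less of its mRNA per cell cannot be told apart, here and for every gene below.

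The B-type lamin genes were lower in level than Lmna, at 2.47 (Lmnb1) and 1.73 (Lmnb2) against 31.0 CPM per kilobase of exon in the Ctrl-labelled libraries. Lmnb1 lies on chromosome 18 (56707813 to 56753424, plus strand), and its CPM was 7.10, 6.66 and 8.15 in the Ctrl-labelled libraries and 9.76, 8.91 and 11.4 in the cKO-labelled ones. All 3 libraries labelled cKO were above all 3 labelled Ctrl, with cKO replicate 2 the nearest. The mean of the Ctrl-labelled libraries was 7.30 ± 0.765 CPM (SD, n = 3) and the SD of the cKO-labelled ones was 1.28 CPM (n = 3), with a fitted fold of 1.38. The log2 difference was 0.46 (SE 0.13, 95% interval 0.15 to 0.77, edgeR, adjusted p = 0.0449). This call was near the threshold and was kept in 2 of the 6 fits that left out 1 library, those without Ctrl replicate 3 (adjusted p = 0.0394) and without cKO replicate 2 (adjusted p = 0.0365). Without each of the others it was lost, with adjusted p-values of 0.131 (Ctrl replicate 1), 0.133 (Ctrl replicate 2), 0.102 (cKO replicate 1) and 0.152 (cKO replicate 3) in edgeR. Lmnb2, on chromosome 10 (80901203 to 80918245, minus strand), had 7.84, 7.94 and 6.48 CPM against 7.14, 8.31 and 5.68 CPM. These values overlapped, with the highest and the lowest both in libraries labelled cKO. The log2 difference was -0.08 (SE 0.17, 95% interval -0.46 to 0.31, edgeR, adjusted p = 0.763), an interval that does not show that the groups were alike.

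Ratios within a library, which do not depend on the scaling between libraries, separated the labelled groups. The ratio of Lmna to the sum of Lmnb1 and Lmnb2, each as counts per kilobase of merged exons, was 7.03, 7.44 and 7.71 in the Ctrl-labelled libraries and 3.19, 3.36 and 2.92 in the cKO-labelled ones. The lowest value in the Ctrl-labelled libraries was above the highest in the cKO-labelled ones. Means were 7.39 ± 0.341 and 3.16 ± 0.224 (SD, n = 3 each), a log2 difference of -1.23 (exact two-sided permutation p = 0.1, the smallest possible, and 0.1 adjusted over 2 ratios). The ratio of Lmna to Lbr, the other tether of peripheral heterochromatin, was 4.81, 4.78 and 5.42 against 2.13, 2.31 and 2.00, with no overlap. Its means were 5.00 ± 0.362 and 2.15 ± 0.157 (SD, n = 3 each), a log2 difference of -1.22 (exact permutation p = 0.1, adjusted 0.1). Lmna enters both ratios, so they are not separate evidence.

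**Figure D2:**
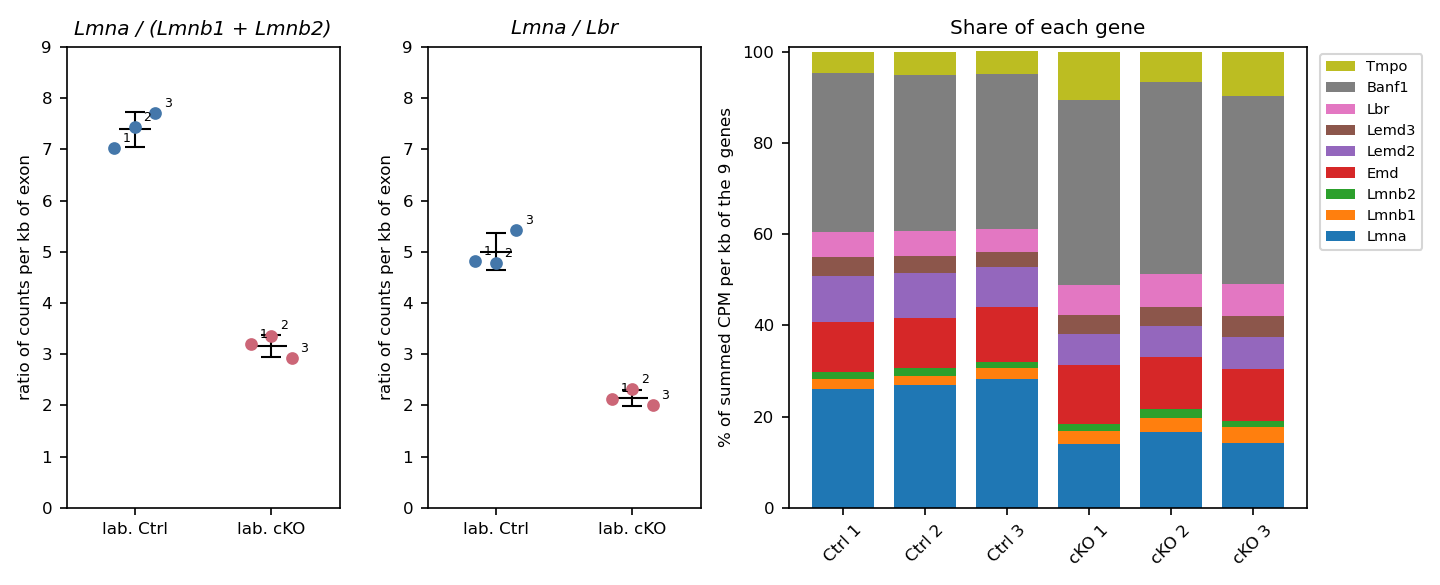
Left and middle, ratios of Lmna to the B-type lamin genes and to Lbr per library, with mean and SD (n = 3, axes from 0); lab. Ctrl and lab. cKO are the labelled groups. Right, the share of each of the 9 genes in their summed CPM per kb of merged exons, 1 bar per library; Lmna takes 26.1% to 28.2% in the Ctrl-labelled libraries and 14.0% to 16.6% in the cKO-labelled ones.

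Among the genes for LEM-domain proteins of the inner membrane, Lemd2 was lower and Emd and Lemd3 were not called. Lemd2 encodes LEM2, which recruits the membrane-sealing ESCRT-III machinery to the re-forming envelope, and lies on chromosome 17 (27189600 to 27204469, minus strand). Its CPM was 56.8, 53.7 and 49.0 in the Ctrl-labelled libraries and 36.7, 33.4 and 36.6 in the cKO-labelled ones. The groups did not overlap. Means were 53.2 ± 3.93 and 35.6 ± 1.88 CPM (SD, n = 3 each), 33.1% lower in the cKO-labelled libraries, with a log2 difference of -0.58 (SE 0.08, 95% interval -0.77 to -0.39, edgeR, adjusted p = 0.00521). Emd encodes emerin and lies on chromosome X (74254687 to 74261548, plus strand). It had 31.3, 31.5 and 35.6 CPM against 37.2, 28.8 and 30.7 CPM. The labelled groups overlapped, and cKO replicate 1 was the highest of the 6 libraries. The log2 difference of Emd was -0.03 (SE 0.11, 95% interval -0.29 to 0.24, edgeR, adjusted p = 0.887). Lemd3 encodes MAN1, which binds receptor-activated SMADs at the envelope, and lies on chromosome 10 (120923413 to 120979332, minus strand). It had 22.2, 20.5 and 18.4 CPM against 23.2, 20.4 and 23.6 CPM, and the groups overlapped through cKO replicate 2. Its log2 difference was 0.14 (SE 0.10, 95% interval -0.10 to 0.38, edgeR, adjusted p = 0.361).

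Tmpo, which encodes the LAP2 proteins (membrane-bound and nucleoplasmic isoforms of 1 gene), had the largest positive difference. It also had the largest spread of the 9 genes in the cKO-labelled libraries, though not in the Ctrl-labelled ones. It lies on chromosome 10 (91147571 to 91181315, minus strand), and the counts do not separate its isoforms. Its CPM was 58.9, 64.0 and 64.5 in the Ctrl-labelled libraries and 133, 72.8 and 113 in the cKO-labelled ones. The groups did not overlap, but cKO replicate 2 stood nearer to the Ctrl-labelled libraries than to the other libraries labelled cKO. The coefficient of variation was 28.7% in the cKO-labelled libraries and 4.97% in the Ctrl-labelled ones. Means were 62.4 ± 3.11 and 106 ± 30.5 CPM (SD, n = 3 each), with a log2 difference of 0.77 (SE 0.20, 95% interval 0.29 to 1.24, edgeR, adjusted p = 0.0332). With 1 library left out the log2 difference ranged from 0.56 (without cKO replicate 1) to 0.96 (without cKO replicate 2). Without cKO replicate 2 the call was kept (edgeR, adjusted p = 0.00285), and without any 1 of the other 5 libraries the call was lost (adjusted p up to 0.107).

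Summed levels of genes of slow and fast IIb fibers differed between the labelled groups. The summed CPM of 10 slow-fiber genes, among them Myh7 and Tnni1, was 9070 to 15500 in the Ctrl-labelled libraries and 2180, 4130 and 553 in the cKO-labelled ones. At an adjusted p under 0.05, 5 of 10 genes were lower and 0 higher, against 11.8% and 12.6% of all genes. All 10 log2 differences were negative, but Myh7 (edgeR, adjusted p = 0.0742) and Tnni1 (edgeR, adjusted p = 0.0557) were not called. The values of Myl3 overlapped between the groups. The summed CPM of 8 fast IIb-fiber genes, among them Myh4 and Pvalb, was 53200 to 91500 in the Ctrl-labelled libraries and 187000, 145000 and 170000 in the cKO-labelled ones (8 of 8 genes higher, against 12.6% of all genes). Neither sum overlapped between the groups, and none of these genes was at 0 throughout. Values of single genes did not overlap for 21.9% (lower) and 22.0% (higher) of all genes tested. The part of fiber type in the differences of Lmna, Lemd2, Lmnb1, Lbr and Tmpo was not tested.

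Of the partners of heterochromatin and of the LEM domain, Lbr was higher by a small amount and Banf1 was not called. Lbr encodes a protein of the inner membrane with a tudor domain and a sterol reductase domain, and lies on chromosome 1 (181815335 to 181843046, minus strand). It had 29.4, 30.4 and 28.9 CPM in the Ctrl-labelled libraries and 35.4, 34.2 and 36.0 CPM in the cKO-labelled ones. The groups did not overlap and each spanned a narrow range. Its log2 difference was 0.25 (SE 0.07, 95% interval 0.10 to 0.41, edgeR, adjusted p = 0.032), but the call was lost in each of the 6 fits that left out 1 library (adjusted p of 0.0507 to 0.139), and with total counts in place of TMM the difference was -0.0026 (adjusted p = 0.982). Banf1, on chromosome 19 (5364638 to 5367168, minus strand), had 59.6, 57.8 and 58.8 CPM against 68.5, 63.2 and 66.1 CPM, with no overlap. Its log2 difference was 0.17 (SE 0.07, 95% interval 0.01 to 0.32) and was not called (edgeR, unadjusted p = 0.0387, adjusted p = 0.109), and it was -0.09 with total counts. In GENCODE M21, 28.6% of the exon bases of Banf1 are shared with Eif1ad on the other strand, 13.6% of those of Emd with the pseudogene Gm14686 and 10.7% of those of Lbr with Dnah14 and Gm26004. Eif1ad and Dnah14 lie on the other strand from Banf1 and Lbr. The strand setting of the counting is not given in the sources used here, so their reads could not be told apart. Gm14686 and Gm26004 lie on the same strand as Emd and Lbr, so the strand would not separate their reads.

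**Figure D3:**
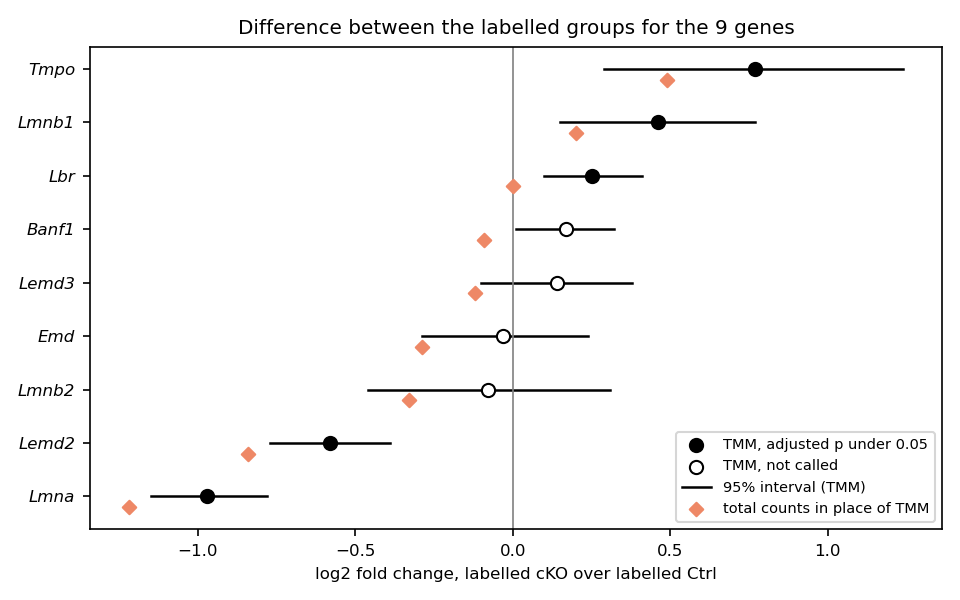
Log2 fold change of the cKO-labelled libraries over the Ctrl-labelled ones for the 9 genes (horizontal axis). Circles are the TMM values with 95% intervals, filled where the adjusted p was under 0.05 (5 genes), and diamonds the values with total counts in place of TMM, which lie lower for all 9 genes and change sign for Lbr, Banf1 and Lemd3.

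The scaling bears on the genes with a positive difference. When libraries were scaled by total counts alone, the median log2 difference of all genes moved from -0.015 to -0.27, and the calls over all genes went from 1786 higher and 1668 lower to 673 higher and 4074 lower. The TMM factors were 1.08 to 1.11 in the Ctrl-labelled libraries and 0.865 to 0.983 in the cKO-labelled ones. With total counts, Lmna was -1.22 (adjusted p = 0.000751) and Lemd2 -0.84 (adjusted p = 0.00175), both still called lower in edgeR, and Lmna then passed the fold limit of 2. Tmpo at 0.49 (adjusted p = 0.0524) and Lmnb1 at 0.20 (adjusted p = 0.264) were not called in edgeR with total counts. Relative to the median of all genes, Lmna was -0.95 under both scalings, Lemd2 -0.56 with TMM and -0.57 with total counts, Tmpo 0.78 and 0.76, Lmnb1 0.48 and 0.47, and Lbr 0.27 under both.

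**Figure D4:**
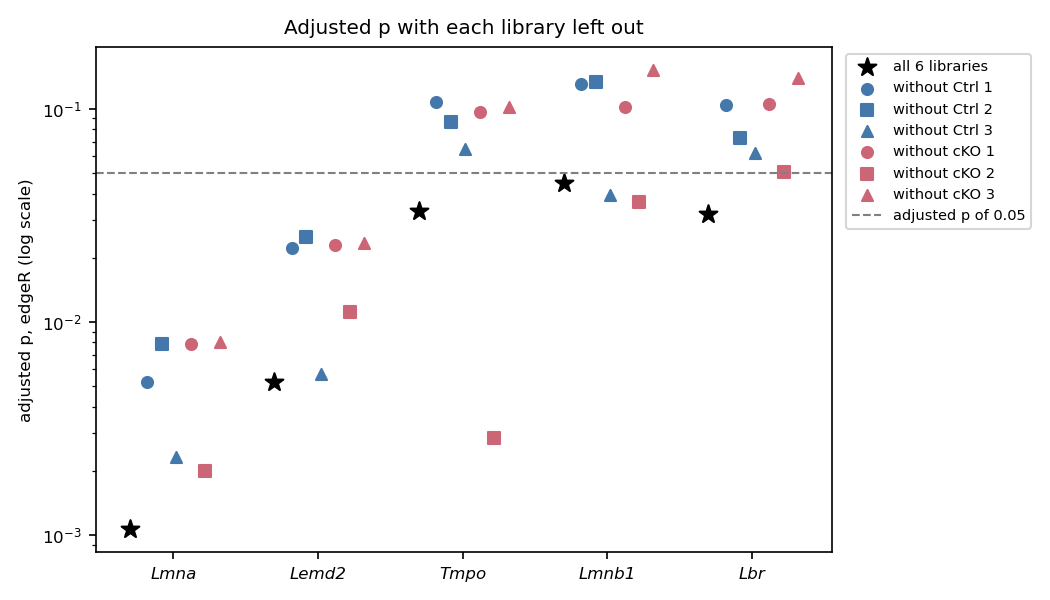
Adjusted p (edgeR, log scale) of the 5 called genes with all 6 libraries (stars) and without each library in turn (blue, 1 labelled Ctrl left out; red, 1 labelled cKO left out); the dashed line is 0.05. Lmna (0.00199 to 0.00805) and Lemd2 (0.00566 to 0.0249) stay under the line in all 6 fits, Lmnb1 in 2, Tmpo in 1 and Lbr in 0.

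Levels of different genes were compared as CPM per kilobase of merged exons. In the Ctrl-labelled libraries the order was Banf1 (39.3 ± 0.615 CPM per kb, SD, n = 3), Lmna (31.0 ± 1.64), Emd (13.0), Lemd2 (10.9), Lbr (6.21), Tmpo (5.68), Lemd3 (4.24), Lmnb1 (2.47) and Lmnb2 (1.73). No neighbours in that order overlapped over the 3 libraries. In the cKO-labelled libraries it was Banf1 (44.1), Lmna (15.9), Emd (12.8), Tmpo (9.65), Lbr (7.39), Lemd2 (7.30), Lemd3 (4.66), Lmnb1 (3.39) and Lmnb2 (1.64), where Emd and Tmpo, Tmpo and Lbr, and Lbr and Lemd2 overlapped. The summed level was 115 ± 1.66 and 107 ± 6.54 CPM per kb (SD, n = 3 each). The share of Lmna in it was 27.1% in the Ctrl-labelled libraries and 14.9% in the cKO-labelled ones, while that of Banf1 was 34.3% and 41.3% and that of Tmpo 4.96% and 8.96%. Merged exons span every annotated isoform, and with the length of the longest coding transcript Lmna (57.4 CPM per kb) came before Banf1 (46.6) in the Ctrl-labelled libraries. With that length Banf1 (52.3) was first in the cKO-labelled libraries, before Lmna (29.3) and Tmpo (28.1).

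Genes with the pattern most like that of Lmna, by Pearson's r of log2 CPM over the 6 libraries among the 14180 genes tested, were Cpne2 (r = 0.9988), Ncs1 (r = 0.9987) and Sh3kbp1 (r = 0.9986). Cpne2, which encodes a copine, had 51.1, 59.6 and 75.2 CPM in the Ctrl-labelled libraries and 9.85, 12.0 and 9.34 CPM in the cKO-labelled ones. Ncs1, which encodes a neuronal calcium sensor, had 15.2 to 16.6 CPM and 7.59 to 8.15 CPM. Sh3kbp1, which encodes an endocytic adaptor, had 42.5 to 47.0 CPM and 23.0 to 24.1 CPM. The 3 genes were picked from all genes for this likeness, and with 2 groups of 3 libraries any gene that separates the groups by an even step has a high r.

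The other genes of the envelope were described by lists written by hand, 60 genes of which 57 were tested (Lemd1, Ankle1 and Banf2 did not pass the filter). Of the 57, 8 were higher, 4 were lower and 45 were not called, with a median log2 difference of 0.00 (29 positive, 28 negative), against 12.6% of all genes called higher and 11.8% called lower. With total counts 21 of the 57 were called lower, against 28.7% of all genes tested in that fit, and without cKO replicate 3, 2 of the 57 were, against 5.46% of all genes. Smad3, a receptor-activated SMAD of the TGF-β pathway, of the class that MAN1 binds, had the largest difference. It had 39.3, 51.1 and 65.1 CPM in the Ctrl-labelled libraries and 171, 140 and 135 CPM in the cKO-labelled ones, with no overlap. The log2 difference of Smad3 was 1.52 (SE 0.19, edgeR, adjusted p = 0.00365), and 1 of the 5 SMAD genes was called. It was the 1 gene of the 57 with a fold change over 2 and an adjusted p under 0.05.

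In the list of ESCRT-III genes, whose products seal holes in the envelope, 3 of 9 were higher and 0 lower, against 12.6% and 11.8% of all genes, and with total counts 2 were higher and 4 lower, against 4.75% and 28.7%. Spast, a microtubule-severing ATPase recruited by ESCRT-III, was 50.1 ± 5.49 CPM in the Ctrl-labelled libraries and 77.6 ± 2.16 CPM in the cKO-labelled ones (SD, n = 3 each; log2 difference 0.63, edgeR, adjusted p = 0.00547). Vps4a, the ATPase that takes the filaments apart, was 0.48 higher on the log2 scale (edgeR, adjusted p = 0.00745). Chmp4b, the main filament subunit, was 0.45 higher (edgeR, adjusted p = 0.00641) but not called with total counts (0.20, adjusted p = 0.0684). Chmp7, which LEM2 binds, was 53.9 and 60.8 CPM (log2 difference 0.17, edgeR, adjusted p = 0.0947).

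Of 12 genes of peripheral heterochromatin, 1 was higher and 1 lower, against 12.6% and 11.8% of all genes, and with total counts 1 was higher and 5 lower, against 4.75% and 28.7%. Hdac3, a histone deacetylase that binds emerin and LAP2β, was 51.3 ± 2.34 CPM in the Ctrl-labelled libraries and 76.3 ± 1.17 CPM in the cKO-labelled ones (SD, n = 3 each; log2 difference 0.57, SE 0.07, edgeR, adjusted p = 0.00328). Rb1, the retinoblastoma protein that lamin A/C and LAP2α bind, was 48.0 and 34.8 CPM (log2 difference -0.46, edgeR, adjusted p = 0.0135), a call lost without cKO replicate 3. The HP1 genes Cbx1, Cbx3 and Cbx5, whose products bind LBR, had log2 differences of 0.19, 0.23 and 0.05 and were not called.

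Among 9 membrane proteins and torsins of the lamina, 1 was higher and 2 were lower (12.6% and 11.8% over all genes), and with total counts 1 was higher and 4 were lower (4.75% and 28.7% over all genes). Tor1aip1, which encodes LAP1, a lamin-binding activator of torsins, was 0.56 higher on the log2 scale (145 and 213 CPM, edgeR, adjusted p = 0.00735). Tor3a, of the torsin ATPase family, had a log2 difference of -0.63 (16.2 and 10.4 CPM, edgeR, adjusted p = 0.00936). Mlip, which encodes a lamin A/C-interacting protein of muscle, had a log2 difference of -0.36 (65.5 and 51.2 CPM, edgeR, adjusted p = 0.0207), a call lost without Ctrl replicate 1, Ctrl replicate 2 or cKO replicate 3.

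Of 6 genes of the LINC complex, which joins the lamina to the cytoskeleton, 1 was higher and 0 lower. With total counts 1 was higher and 2 were lower. Over all genes, here and for the lists below, 12.6% were called higher and 11.8% lower. With total counts these shares were 4.75% and 28.7%. The higher LINC gene, Syne1 (nesprin-1), had a log2 difference of 0.61 (107 and 163 CPM, edgeR, adjusted p = 0.014). This call was lost without Ctrl replicate 1 or Ctrl replicate 2 (adjusted p up to 0.0566). Sun1 (69.2 and 67.2 CPM) and Sun2 (211 and 227 CPM), the inner-membrane partners of the nesprins, were not called. Of 6 genes of lamin processing, 1 was higher and 0 lower, and with total counts 1 was higher and 2 were lower. The higher one, Narf, whose product binds prelamin A, had a log2 difference of 0.48 (126 and 176 CPM, edgeR, adjusted p = 0.00696). Zmpste24, the protease that cleaves prelamin A, had 33.2 and 36.1 CPM (log2 difference 0.12, edgeR, adjusted p = 0.402). Of 6 tested genes for kinases and phosphatases of BAF, 0 were higher and 1 lower, and with total counts 0 were higher and 3 lower. The lower one with TMM, Ppp2ca, the catalytic subunit of PP2A, had a log2 difference of -0.64 (268 and 173 CPM, edgeR, adjusted p = 0.00904). The kinase gene Vrk1 (log2 difference 0.28, edgeR, adjusted p = 0.151) was not called. Ankle2, the LEM-domain gene tested beside the 4 above, had 40.4 and 43.3 CPM (edgeR, adjusted p = 0.357). Of the 3 sterol reductase genes related to Lbr in activity, edgeR called 0, while 1 (Dhcr7, log2 difference 0.39, adjusted p = 0.0528) had an unadjusted p under 0.05 and DESeq2 called 1. With total counts edgeR called 0 of the 3 higher and 1 lower.

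**Figure D5:**
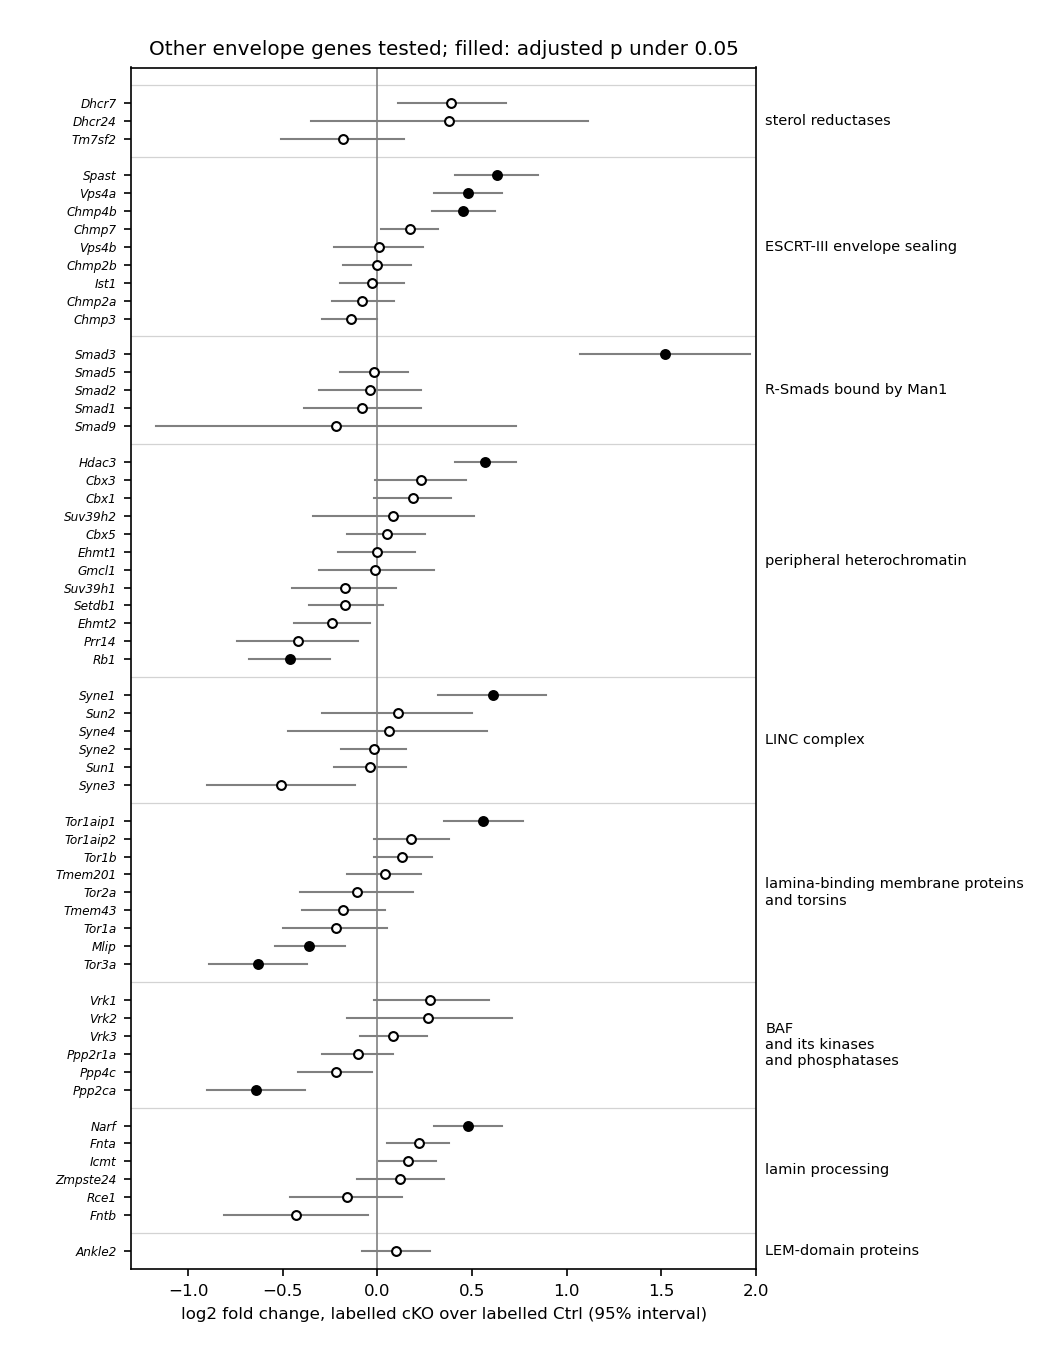
Log2 fold change (horizontal axis, labelled cKO over labelled Ctrl) with 95% intervals of the 57 other envelope genes tested, grouped by list at the right. Filled points had an adjusted p under 0.05, 8 of them right of 0 and 4 left of it; Smad3 at 1.52 lies farthest from 0.

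Summed markers of some other cells of muscle also differed between the labelled groups, and those of others overlapped. Over all genes tested, 11.8% were called lower and 12.6% higher. Values of single genes did not overlap for 21.9% (lower) and 22.0% (higher). The counts called among endothelial, satellite cell and dividing cell genes were near those shares. Summed CPM was 172 to 195 in the Ctrl-labelled libraries and 77.8 to 110 in the cKO-labelled ones for 11 leukocyte genes (6 of 9 tested lower, 0 higher), 535 to 573 and 483 to 502 for 8 endothelial genes (1 of 8 lower), and 347 to 371 and 299 to 306 for 5 mural genes (2 of 5 lower). It was 30.3 to 31.9 and 36.9 to 46.2 for 6 satellite cell genes (1 of 6 higher). The gene called there was Cdh15 (15.8 and 22.7 CPM). Of the 6, 4 had positive log2 differences, while Pax7 (-0.10) and Vcam1 (-0.04) had negative ones. For 11 genes of dividing cells the summed CPM was 5.89 to 11.2 and 13.3 to 16.3 (1 of 7 tested higher). That last sum rose through Aurka, a mitotic kinase gene, alone (3.69 ± 1.64 against 11.4 ± 1.25 CPM, SD, n = 3 each), and the other 6 tested genes of dividing cells had negative log2 differences, with a median over the 7 of -0.35. The sums overlapped between the groups for 9 genes of fibro-adipogenic progenitors (4 of 9 lower), 5 Schwann cell genes and 5 adipocyte genes. No listed marker was at 0 throughout, and among the dividing cell genes Ccnb1, Cdk1, Bub1, Plk1 and Aurkb were under 0.5 CPM. A-type lamins are scarce in many leukocytes and B-type lamins are widespread, and the part of these cells in the differences of Lmna, Lmnb1, Lbr, Lemd2 and Tmpo was not tested.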

How the data were processed

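Bulk RNA-Seq counts of 6 GP muscle libraries were used. The authors deposited counts as whole numbers per gene, without normalization. Per the submitters' processing notes they used FastQC 0.11.8, Trimmomatic 0.39, HISAT2 2.1.0, featureCounts 1.6.2 and mm10. The annotation and strand setting are not given in the sources used here. Groups came from the sample titles, 3 mice per labelled group.

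All genes were fitted in edgeR 4.0.16 (R 4.3.3) with filterByExpr, TMM and the quasi-likelihood test, and p-values were adjusted by the Benjamini-Hochberg method over the 14180 genes tested. Calls were made at an adjusted p under 0.05. The study used DESeq and a fold change over 2, and DESeq2 1.42.0 was an alternative. Standard errors came from the F statistic. Single values were tested by exact two-sided permutation. Counts of replicates differed beyond sampling noise (chi-square per degree of freedom 29.7 to 102), so no library repeats another.

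Lengths and positions came from GENCODE M21 on GRCm38, and promoter windows from the RefSeq table. All 9 members are named, with the called genes of the envelope lists (at most 3 per list and direction, by p), the 3 genes most like Lmna by r (on log2 CPM with a pseudocount of 0.5) and Net39. Other genes named in the lists for their role were chosen after their values were seen. The members and lists were chosen with earlier results of these data known. The script steps were tested on simulated counts. Alternatives were DESeq2's size factors, total counts, other filters (no filter beyond 1 count in any library, or at least 10 counts in every library), DESeq2, a replicate block, a robust fit, the fold change limit, ratios without length and each library left out.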

Additional observations from a re-analysis of the deposited data

How the results depend on the processing

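Lmna and Lemd2 were called lower in all 13 alternative fits run, Lmnb1 was called in 7, Tmpo in 6 and Lbr in 5. With total counts, 0 of 9 genes were called higher in edgeR (1 at an unadjusted p under 0.05), and Lbr (-0.0026), Banf1 (-0.09) and Lemd3 (-0.12) turned direction on the log2 scale. Total counts also called 21 of the 57 other envelope genes lower, and lowered the median of all genes to -0.27. DESeq2, with its own size factors, called 3 of the 9 higher. With each library left out in turn, the genes called higher numbered 0 to 2 of 9 and those called lower 2 of 9 each time, and the other envelope genes called numbered 7 to 8 higher and 2 to 6 lower, with 2 lower without cKO replicate 3. Lmnb2 ranged from -0.23 to 0.04 (0.04 without cKO replicate 3), and Emd from -0.15 to 0.04 (0.04 without Ctrl replicate 3 and 0.03 without cKO replicate 2). Over all genes these fits called 1560 to 3585 genes, against 3454 with all libraries (1575 without Ctrl replicate 1, 1820 without Ctrl replicate 2, 1789 without cKO replicate 1 and 1560 without cKO replicate 3). Fewer libraries enter each. With a fold change over 2 as well, 0 of 9 members passed in either direction, and 1 higher and 0 lower of the 57 others did; Lmna passed that limit with total counts (-1.22) and without cKO replicate 2 (-1.02). The ratios kept their direction in all alternatives (-1.27 to -1.17 for Lmna to the B-type lamin genes and -1.27 to -1.16 for Lmna to Lbr with 1 library left out, exact permutation p = 0.2, the smallest possible there). Deviations of same-numbered mice from their group means had correlations of 0.0835, -0.215 and -0.00201. Those of differently numbered mice ranged from -0.217 to 0.194. Each deviation was from a mean of 3 libraries, so these values cannot decide whether the number pairs the mice. With the replicate block, 0 of 9 genes were called higher (3 at an unadjusted p under 0.05; adjusted p = 0.052 for Lmnb1, 0.0999 for Lbr and 0.0701 for Tmpo in edgeR), Lmna and Lemd2 were called, Mlip and Rb1 were not, and calls over all genes went from 3454 to 1899. Groups of 3 limit every permutation test to p = 0.1.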
